A study of Mus musculus with 16 samples.

Results

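The livers of 4 aged mice (102 weeks) were compared with those of 4 young adult mice (12 weeks), which are 8 of the 16 livers of the series. The libraries were taken by the age and experimental group on their labels, with no measured value used. None of these 8 mice had received antibiotics. The other 8 libraries came from 102-week mice given antibiotics, labelled PAM I or PAM II, an exposure that the series title places in early life. Total RNA was extracted from 500 mg portions of snap-frozen liver and sequenced as paired reads of 100 bases. The strain, genotype, sex, diet, cage and hour of collection are not given in the labels. For the young livers, 1 label field (the description) reads as for aged mice, whereas title, age and group say young, and the latter were followed. No label says outright that each library is a separate animal, so p-values measure the spread between these libraries.

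Mouse liver differs strongly between the sexes. The pituitary releases growth hormone in pulses in males and almost continuously in females, and the hormone acts on hepatocytes through its receptor and the transcription factor STAT5B. The male pattern keeps genes such as the major urinary proteins (Mup) high and female-biased cytochrome P450 genes low. Hepatocytes also take up, store and burn fatty acids under the control of the PPAR receptors, and share the tissue with Kupffer cells, endothelium, stellate cells and lymphocytes.

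Aged libraries held 39856490 to 47042924 fragments assigned to genes and young ones 36968993 to 42733282. Levels are given in CPM, counts relative to the TMM-scaled library size, in the order of libraries 1 to 4 of each age. Hepatocyte markers such as Alb and Ttr summed to 75035 to 112405 CPM in aged and 99763 to 111548 CPM in young livers. Every library carried Y-linked Ddx3y (20.7 to 44.3 CPM) and almost no Xist (0 to 0.114 CPM). In the 500 most variable genes, the first principal component took 61.1% of the variance and placed aged livers at -43.3 to -17.6 and young livers at 17.7 to 41.6. Young 1 stood apart, with 13.9% mitochondrial fragments against 4.65 to 9.01% in the other 7 libraries and 20002 detected genes against 21886 to 23394. Aged 4 had the highest T cell marker sum of the 8. Muscle RNA differed between livers, and Acta1, Ckm, Mylpf and Tnnt3 summed to 1.01, 6.81, 0.636 and 1.51 CPM in aged and 55.2, 0.998, 5.1 and 15.1 CPM in young livers. In the deposited file headers the aged controls share 1 column of the sequencing plate and the young livers another, so plate column and age cannot be told apart.

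Of 17046 genes tested, 327 were higher in aged livers (1.92%) and 224 were lower (1.31%) by edgeR's quasi-likelihood test at an adjusted p under 0.05, which is what "rose" and "fell" mean here. Log2 fold changes are aged minus young, given with their standard error after ±. The median log2 fold change over all tested genes was -0.008. Among the genes that rose, 160 did so by at least 4-fold and 43 by at least 16-fold. Among those that fell, 50 did so by at least 4-fold and 11 by at least 16-fold. The 4 aged and 4 young libraries did not overlap for 300 of the 327 and 208 of the 224. Over all tested genes, 4.82% were higher and 4.44% lower in every aged library than in every young one. The test used the spread of all 16 libraries, and with only these 8 libraries fitted 134 rose and 64 fell. Single libraries weighed on the counts, with 194 higher and 90 lower without aged 4, 171 and 100 without young 1, 127 and 72 without young 4, and 104 and 51 without aged 4 and young 1 together. A set of 176 genes was called in the full fit and in each of the 8 fits with 1 library left out, 117 of them higher and 59 lower.

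**Figure D1:**
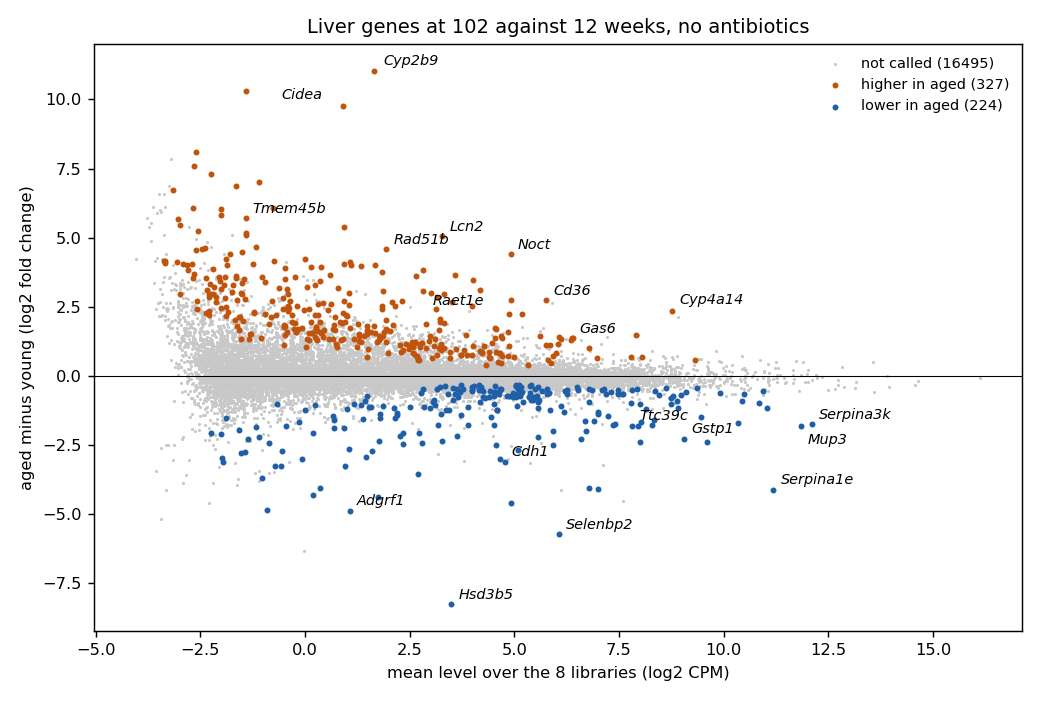
Log2 fold change, aged minus young, of 17046 tested genes against their mean level over the 8 libraries in log2 CPM, with called genes in colour. Cyp2b9 at 11.04 and Hsd3b5 at -8.26 lie far from the bulk of the genes, and Serpina1e is among the most abundant that fell.

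Many female-biased genes rose in aged livers. Of 34 measured genes usually higher in female than male mouse liver, 15 rose (44.1%, against 1.92% of all tested genes) and 0 fell. Of the 34, 19 were higher in every aged than in every young library (55.9%, against 4.82%). The median log2 fold change of the list was 1.58. This and the other gene lists were drawn up with earlier results of these data known. Their shares are therefore descriptions, and no list was tested as a set. Leaving out 1 library gave 7 to 13 genes that rose, and leaving out aged 4 and young 1 gave 8. Cyp2b9, a steroid-hydroxylating cytochrome P450 of female liver, was at 108, 156, 84.3 and 119.8 CPM in aged and 0, 0.0998, 0.0243 and 0.0805 CPM in young livers (log2 fold change 11.04 ± 0.98, adjusted p = 3.56e-05). Young livers held 8 fragments of it in all and aged livers 21394, a ratio of 2201 with an exact 95% interval of 1117 to 5098 for counting error. The 7 Cyp2b genes together, which share sequence, summed to 114, 167, 86.5 and 124 CPM in aged and 0.061, 1.9, 0.777 and 0.59 CPM in young livers. Slc22a27, an organic anion transporter, was at 9.82, 8.05, 10.3 and 13.9 CPM in aged and 0.214, 1.17, 0.729 and 0.536 CPM in young livers (log2 fold change 3.96 ± 0.42, adjusted p = 0.000126). Its relative Slc22a29 was at 2.76, 2.97, 2.59 and 3.63 CPM in aged and 0.58, 0.25, 0.243 and 0.241 CPM in young livers (log2 fold change 3.20 ± 0.42, adjusted p = 0.000651). Both transporters were higher in each aged library than in any young one.

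Other female-biased genes varied more among the aged livers. Cyp2a4, a testosterone hydroxylase, was at 3.65, 22.6, 12.6 and 12.3 CPM in aged and 0.336, 0.349, 0.34 and 0.188 CPM in young livers (log2 fold change 5.38 ± 0.86, adjusted p = 0.00316), lowest of the aged in aged 1. The sulfotransferase gene Sult2a7, from outside the list, was at 34.9, 6.81, 2.24 and 2.65 CPM in aged and 0.458, 1.1, 0.534 and 0.805 CPM in young livers and the transporter Slc22a26 at 32.4, 7.8, 3.55 and 4.05 CPM in aged and 0.336, 1.02, 1.17 and 0.161 CPM in young livers. Aged 1 held the highest level of both. Their log2 fold changes were 4.0 and 4.13, and both lost the call without young 1 or young 4 (adjusted p up to 0.0622 and 0.0646). Ntrk2, a neurotrophin receptor, was at 10.2, 17.4, 15.8 and 12.6 CPM in aged and 0.244, 1.75, 4.15 and 0.349 CPM in young livers (log2 fold change 3.08 ± 0.57, adjusted p = 0.00989). The peroxisomal thioesterase Acot3 had a log2 fold change of 3.01 (adjusted p = 0.0104, and 0.0504 without young 4). Cyp2b13, a paralog of Cyp2b9 named after its values were seen, had 648 fragments in aged livers and 0 in young, which is at least 178-fold higher when the young group is set to a floor of 3 counts in all (adjusted p = 0.0319). It kept its call in 1 of 8 fits with 1 library left out, the one without aged 3 (adjusted p up to 0.09). Atp6v0d2, part of the proton pump of vacuoles and lysosomes, was narrow within each age, at 9.3, 7.77, 7.47 and 8.24 CPM in aged and 1.95, 1.5, 1.21 and 1.42 CPM in young livers (log2 fold change 2.43 ± 0.27, adjusted p = 0.000154). Of the 10 genes named here, 6 kept their call in each of the 8 left-out fits. Reads of Cyp2, Slc22a, Sult2a and other close families can be shared between paralogs, so the split between members is uncertain.

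Many male-biased genes fell in aged livers. Of 45 measured genes usually higher in male liver, 25 fell (55.6%, against 1.31% of all tested genes) and 1 rose (2.22%, against 1.92%). Of the 45, 30 were lower in every aged than in every young library (66.7%, against 4.44%). The median log2 fold change was -1.73. This list too was drawn up with earlier results of these data known. The number that fell was 14 to 23 with 1 library left out and 8 without aged 4 and young 1. Hsd3b5, a steroid dehydrogenase family member of male liver, was at 0.343, 1.21, 1.05 and 0.2 CPM in aged and 185, 187, 175 and 311 CPM in young livers (log2 fold change -8.26 ± 1.01, adjusted p = 0.000406). Selenbp2, which binds selenium, was at 6.76, 12.7, 11.9 and 8.6 CPM in aged and 374, 235, 557 and 948 CPM in young livers (log2 fold change -5.73 ± 0.60, adjusted p = 9.14e-05). No aged library came near the young range of either gene. The 49 Mup genes and pseudogenes, whose proteins carry pheromones in male urine and whose sequences are nearly identical, summed to 3337, 6082, 3169 and 2443 CPM in aged and 21172, 12159.7, 10612 and 25210.3 CPM in young livers. The mean of that sum was 4.6 times higher in young livers. Aged 2 had the highest Mup sum of the aged and still lay below the lowest young library.

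Within that family Mup21, named after its values were seen, was at 35.5, 63, 50.8 and 31.6 CPM in aged and 245, 165, 163 and 309.9 CPM in young livers (log2 fold change -2.29 ± 0.37, adjusted p = 0.00393), and Mup6 had a log2 fold change of -2.22 (adjusted p = 0.000279). Mup11 had -4.08, Mup16 -3.02 and Mup13 -2.50 (adjusted p = 0.0275, 0.0404 and 0.0101), and Mup11 and Mup16 kept the call in 3 of 8 left-out fits (adjusted p up to 0.0865 and 0.177, both without young 4). Serpina1e, an alpha-1-antitrypsin paralog, was at 795, 401, 989.8 and 264 CPM in aged and 8081, 6536, 13881 and 14236 CPM in young livers (log2 fold change -4.12 ± 0.80, adjusted p = 0.0112). The 6 Serpina1 genes summed to 9022, 8343, 8950.1 and 6978 CPM in aged and 19873, 16997, 24596 and 25570.5 CPM in young livers, so the family was 2.61 times higher in young livers and Serpina1e had the largest change among its members named here. The glutathione transferase Gstp1 was at 201, 245, 278 and 263 CPM in aged and 972, 882, 1335 and 1598 CPM in young livers (log2 fold change -2.28 ± 0.21, adjusted p = 4.76e-05), and Gstp2 had a log2 fold change of -2.19 (adjusted p = 0.000417). Nudt7, a peroxisomal coenzyme A hydrolase, was at 186, 253, 161 and 162 CPM in aged and 695, 479.9, 436 and 670.2 CPM in young livers (log2 fold change -1.58 ± 0.22, adjusted p = 0.00114). The carboxylesterase gene Ces4a had -4.33 (adjusted p = 0.000237) and the proteoglycan gene Cspg5 -4.05 (adjusted p = 0.00314). Cyp7b1, an oxysterol hydroxylase, had -1.63 (adjusted p = 0.0389) and kept its call in 2 of 8 left-out fits (adjusted p up to 0.145, without young 4). Cspg5 was named after its values were seen. Without aged 4 and young 1, adjusted p was 0.0819 for Serpina1e and 0.0517 for Mup21.

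**Figure D2:**
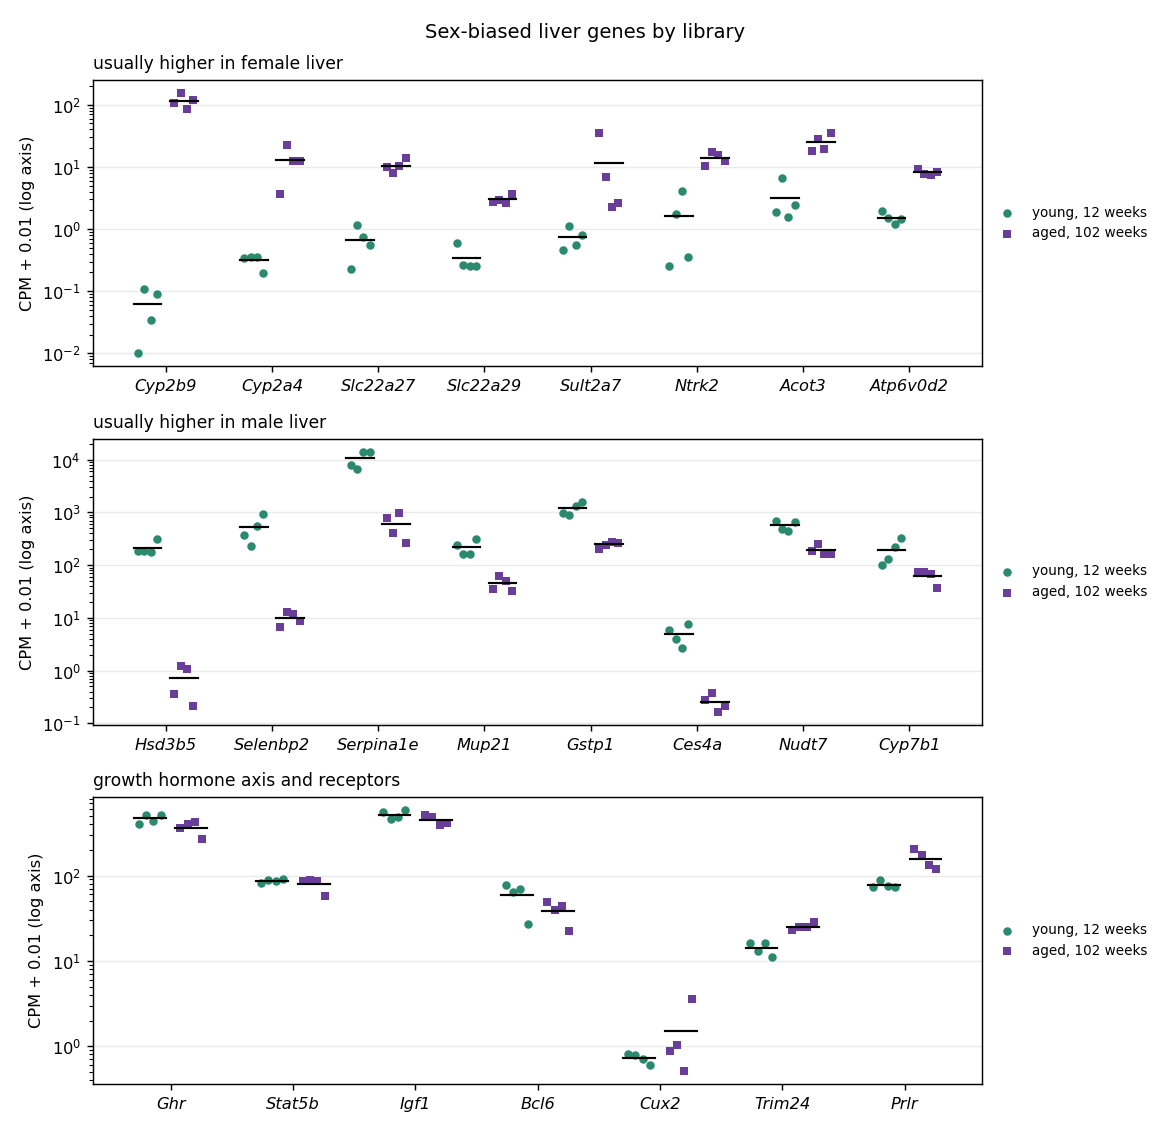
CPM plus 0.01 on a log axis for sex-biased genes, regulators and receptors in each of the 8 libraries (circles, young; squares, aged; bars, group means). For the 8 genes of the upper row and the 8 of the middle row no aged library lies within the young range, while Ghr, Stat5b, Igf1, Bcl6 and Cux2 overlap.

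The best known regulators of this sex pattern were not called. Ghr, the growth hormone receptor, was at 361, 403, 422 and 268 CPM in aged and 404, 516, 434 and 519 CPM in young livers (log2 fold change -0.37 ± 0.18, adjusted p = 0.278). Stat5b, which carries the hormone's signal to the nucleus, was at 85.4, 88.6, 86.4 and 57.5 CPM in aged and 82.2, 88.6, 86.6 and 90.6 CPM in young livers (log2 fold change -0.13 ± 0.14, adjusted p = 0.652). Igf1, the secreted target of growth hormone, was at 511, 490.4, 396 and 418 CPM in aged and 551, 454, 483 and 581 CPM in young livers (log2 fold change -0.19 ± 0.17, adjusted p = 0.582). Libraries of both ages overlapped for these 3 genes. Bcl6, a repressor of female-biased genes in male liver, had a log2 fold change of -0.63 ± 0.41 (adjusted p = 0.425). Cux2, a regulator of female liver, was at 0.867, 1.03, 0.504 and 3.52 CPM in aged and 0.794, 0.774, 0.704 and 0.59 CPM in young livers (log2 fold change 1.04 ± 0.62, adjusted p = 0.381), high in aged 4 alone. Of 29 measured genes of the axis and related receptors 3 rose (10.3%, against 1.92% of all tested genes), Prlr and Trim24 among them, and 0 fell. Prlr, the prolactin receptor, was at 205, 174, 132 and 119 CPM in aged and 74.4, 89.1, 75.5 and 73.9 CPM in young livers (log2 fold change 1.01 ± 0.26, adjusted p = 0.0464), and Trim24, a nuclear receptor cofactor also counted among the female-biased genes, at 22.8, 25, 24.9 and 28.2 CPM in aged and 16, 12.9, 16 and 11.1 CPM in young livers (log2 fold change 0.85 ± 0.21, adjusted p = 0.0382). Both were higher in every aged library. Prlr lost the call in each of the 8 left-out fits and Trim24 in 7 of them (adjusted p up to 0.14 and 0.129, without young 4).

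The upstream sequences of 5 genes that rose or fell are printed as examples, 4 of them named above and Noct described below. They are the 250 bases before the RefSeq start (GRCm38.p6), 5′ to 3′ on the gene's strand, with a match to AGGTCA, a nuclear receptor half-site, or TTATGNAA, a D-box, on either strand in capitals.
Cyp2b9 (chr7:26173159-26173408, plus strand): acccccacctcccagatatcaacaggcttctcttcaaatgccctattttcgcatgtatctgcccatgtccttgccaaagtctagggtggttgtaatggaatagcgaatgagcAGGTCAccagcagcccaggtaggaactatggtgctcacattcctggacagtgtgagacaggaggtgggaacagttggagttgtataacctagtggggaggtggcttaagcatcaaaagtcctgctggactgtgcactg
Slc22a27 (chr19:7966028-7966277, minus strand): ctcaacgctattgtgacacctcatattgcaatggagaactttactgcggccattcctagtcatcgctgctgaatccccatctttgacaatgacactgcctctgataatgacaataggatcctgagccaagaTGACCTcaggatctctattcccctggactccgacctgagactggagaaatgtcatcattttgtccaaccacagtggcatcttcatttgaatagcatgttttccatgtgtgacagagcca
Noct (chr3:51224197-51224446, plus strand): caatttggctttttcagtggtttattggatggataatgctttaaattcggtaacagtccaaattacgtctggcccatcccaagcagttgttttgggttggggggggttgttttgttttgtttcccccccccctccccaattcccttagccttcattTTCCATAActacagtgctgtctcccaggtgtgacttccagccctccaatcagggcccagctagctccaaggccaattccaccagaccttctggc
Selenbp2 (chr3:94693323-94693572, plus strand): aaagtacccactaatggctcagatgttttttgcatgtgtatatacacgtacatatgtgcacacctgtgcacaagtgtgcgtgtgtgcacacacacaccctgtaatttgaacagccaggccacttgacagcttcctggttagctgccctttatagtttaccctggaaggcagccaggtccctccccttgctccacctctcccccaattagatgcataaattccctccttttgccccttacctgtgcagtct
Gstp1 (chr19:4037913-4038162, minus strand): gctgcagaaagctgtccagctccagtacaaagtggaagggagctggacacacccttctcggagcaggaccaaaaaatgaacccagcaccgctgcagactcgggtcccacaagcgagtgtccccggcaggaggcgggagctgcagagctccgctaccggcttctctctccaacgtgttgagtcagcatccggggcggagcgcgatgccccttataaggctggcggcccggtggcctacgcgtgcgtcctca
Cyp2b9 and Slc22a27, which rose, each held 1 AGGTCA match, 138 and 119 bases before the start. Noct, a rhythmic gene that also rose, held 1 D-box match 94 bases before the start. The windows of Selenbp2 and Gstp1, which fell, held none of the 4 letter patterns searched. Over 300-base windows from 250 bases before to 50 after the start, 231 of the 327 genes that rose and 144 of the 224 that fell had an entry, with 310 and 169 windows. AGGTCA was in 17.1% of windows of genes that rose, 13.6% of those that fell and 13.5% of 14811 windows of all tested genes. TTCNNNGAA, the STAT pattern, was in 6.77, 5.33 and 7.0% of them and CACGTG, the E-box, in 8.39, 7.1 and 9.34%. TTATGNAA was in 4.52, 7.69 and 2.27%. The 12 genes behind the value of 7.69% include 5 Mup paralogs, Mup9, Mup10, Mup11, Mup17 and Mup18, whose promoters are close copies. These are counts of letters, not of bound sites.

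A few genes of lipid droplets, fatty acid uptake and triglyceride synthesis rose in aged livers, and 3 esterases of lipid breakdown fell, while most members of these lists were not called. Cidea, a droplet protein best known from brown fat, was at 5.04, 80.8, 74.1 and 57.1 CPM in aged and 0.0916, 0.0998, 0 and 0.0536 CPM in young livers (log2 fold change 9.76 ± 0.97, adjusted p = 5.58e-05). Cidec, which enlarges droplets, was at 12.2, 64.4, 68.7 and 49.6 CPM in aged and 2.87, 6.71, 4.25 and 1.77 CPM in young livers (log2 fold change 3.64 ± 0.47, adjusted p = 0.000609). Aged 1 was the lowest aged library for both and lay above every young one. The adipocyte genes Adipoq, Lep and Retn summed to at most 0.0229 CPM in aged and 0.107 CPM in young livers, with Lep at 0 in all 8. Plin4, another droplet coat protein, was at 22, 68.4, 41.6 and 27.5 CPM in aged and 22.6, 11.1, 18.6 and 9.95 CPM in young livers (log2 fold change 1.36 ± 0.34, adjusted p = 0.0416), and here aged 1 lay inside the young range. Of 18 droplet genes these 3 rose (16.7%, against 1.92% of all tested genes) and 0 fell, with a median log2 fold change of 0.28. Adrb3, the adrenergic receptor of fat cells, fell (-1.79, adjusted p = 0.0294, and called in 3 of 8 left-out fits, up to 0.093 without young 1).

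Cd36, a fatty acid transporter, was at 96.3, 193, 212 and 100.1 CPM in aged and 13.2, 39.4, 19.5 and 17.8 CPM in young livers (log2 fold change 2.74 ± 0.37, adjusted p = 0.00103), and Vldlr, the receptor for very low density lipoprotein, at 7.02, 9.74, 7.98 and 6.59 CPM in aged and 1.5, 2.5, 2.45 and 1.26 CPM in young livers (log2 fold change 2.02 ± 0.32, adjusted p = 0.00332). These were the 2 of 22 uptake genes that rose (9.09%, against 1.92% of all tested genes), and the median of the list was 0.05. Gpat3, which adds the first acyl chain in glycerolipid synthesis, was at 11.5, 10.5, 20.2 and 9.98 CPM in aged and 1.25, 2.77, 2.33 and 1.66 CPM in young livers (log2 fold change 2.70 ± 0.29, adjusted p = 0.000145). Mogat1, which makes diacylglycerol, was at 2.1, 10.3, 6.79 and 3.56 CPM in aged and 0.794, 0.973, 0.291 and 0.456 CPM in young livers (log2 fold change 3.18 ± 0.51, adjusted p = 0.00314). The aged and young libraries did not overlap for any of these 4. Of 18 triglyceride synthesis genes Gpat3 and Mogat1 rose (11.1%, against 1.92% of all tested genes) and 0 fell, with a median of 0.08. Pparg, the receptor that drives fat storage, was at 14.3, 19.5, 24.8 and 18.8 CPM in aged and 7.84, 14.3, 10.9 and 12.7 CPM in young livers (log2 fold change 0.76 ± 0.19, adjusted p = 0.0398). It was the 1 called of 24 lipid regulators (4.17%, against 3.23% of all tested genes in either direction). Of 18 lipolysis genes 3 fell (16.7%, against 1.31% of all tested genes) and 0 rose. They were the carboxylesterases Ces3b (-1.67, adjusted p = 0.01) and Ces3a (-0.92, adjusted p = 0.0145) and the esterase Aadac (-0.54, adjusted p = 0.0155). Ces3a was at 921, 1122, 1171 and 848 CPM in aged and 1926, 1798, 1748 and 2214 CPM in young livers, among the more abundant of these transcripts. With 1 library left out, Pparg was called in 2 of 8 fits and Plin4 in 3 (adjusted p up to 0.106 and 0.134), Ces3a was lost without young 4 (0.0601) and Aadac without aged 4 or young 4 (up to 0.0646). Adrb3, Pparg and Plin4 were among the genes lost without young 4.

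Several genes of fatty acid breakdown rose as well. Of 44 oxidation genes 6 rose (13.6%, against 1.92% of all tested genes), with Acot3 named above among them, and 0 fell. Of the 44, 35 had a positive fold change, and the median was 0.24. The number that rose was 3 to 8 with 1 library left out and 3 without aged 4 and young 1. Of those that rose, Acot3, Cyp4a10 and Abcd2 are also on the female-biased list and are counted there too. Cyp4a14, a microsomal omega-hydroxylase and PPAR-alpha target, was at 1118, 1205, 1209.8 and 604 CPM in aged and 223, 299.5, 179.8 and 114 CPM in young livers (log2 fold change 2.34 ± 0.30, adjusted p = 0.000631). Aged 4 was the lowest aged library and still lay above every young one. Acnat2, a peroxisomal acyltransferase from outside the list, was at 74.7, 73.7, 73.3 and 43.1 CPM in aged and 15.1, 20.4, 8.16 and 12.2 CPM in young livers (log2 fold change 2.24 ± 0.26, adjusted p = 0.000214). Acot2, a mitochondrial thioesterase, had a log2 fold change of 1.86 (adjusted p = 0.0014) and Vnn1, a pantetheinase, 1.41 (adjusted p = 0.0104). Cyp4a10 had 1.47 and the peroxisomal transporter Abcd2 1.58 (adjusted p = 0.0288 and 0.0495), and they were called in 4 and 2 of 8 left-out fits (up to 0.105 and 0.154, without young 4). The fatty acid elongase Elovl3, also male-biased, was the 1 of 21 fatty acid synthesis genes called (4.76%, against 3.23% of all tested genes in either direction). It had -1.79 (adjusted p = 0.0433, lost in each left-out fit, up to 0.133 without young 4). By edgeR's test 0 of 24 cholesterol synthesis genes were called (8 at an unadjusted p under 0.05, 0 by DESeq2 and 0 by limma voom), against 3.23% of all tested genes in either direction.

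Noct, which encodes nocturnin, a rhythmic phosphatase of NADP(H), rose strongly. It was at 224, 262, 137 and 48.3 CPM in aged and 6.47, 6.64, 16.1 and 2.41 CPM in young livers (log2 fold change 4.41 ± 0.68, adjusted p = 0.00253). Each aged library lay above each young one, and aged 4 was the lowest of the aged. Of 26 clock genes Noct was the 1 called (3.85%, against 3.23% of all tested genes in either direction). Arntl, the core activator, was at 29.3, 29.9, 34.6 and 15.3 CPM in aged and 15.9, 32.1, 31.6 and 25.2 CPM in young livers (log2 fold change 0.06 ± 0.26, adjusted p = 0.939). The output gene Dbp was at 1.94, 2.79, 4.67 and 17.1 CPM in aged and 45.8, 1.97, 3.5 and 6.01 CPM in young livers (log2 fold change -1.11 ± 0.90, adjusted p = 0.548), high in young 1 and aged 4. Without aged 4 and young 1, Noct had a log2 fold change of 4.64 (adjusted p = 0.013). The hour of collection is not given, and its part in the level of Noct was not tested. Leaving out libraries does not test it. Among immediate-early genes, which respond within minutes to stimuli, Egr1 was at 18.8, 18.6, 34.7 and 34 CPM in aged and 209, 149.6, 109 and 138 CPM in young livers (log2 fold change -2.51 ± 0.45, adjusted p = 0.00742), with no overlap. Ier2 also fell (-1.10, adjusted p = 0.0171), while Egr2 (2.75, adjusted p = 0.0112) and Fosb (2.14, adjusted p = 0.0155, and 0.0643 without young 4) rose at levels of at most 1.49 CPM. Without aged 4 and young 1, Egr1 had an adjusted p of 0.0561, Ier2 0.0517 and Egr2 0.0751, so these 3 were not called.

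Of 3 genes for ligands of natural killer (NK) cell receptors, grouped here after their values were seen, 2 rose and 1 fell. Raet1e encodes a RAE-1 protein, a stress ligand of the activating receptor NKG2D. It was at 21, 17.4, 19.5 and 24 CPM in aged and 2.35, 3.05, 1.97 and 2.39 CPM in young livers (log2 fold change 3.07 ± 0.29, adjusted p = 4.76e-05). The 4 aged livers lay within a narrow band, well above the young ones. Raet1d, a second ligand of the family, named after its values were seen, was at 38.3, 35.5, 41.9 and 43.7 CPM in aged and 3.33, 11.8, 7.31 and 5.18 CPM in young livers (log2 fold change 2.52 ± 0.37, adjusted p = 0.00158). The annotated spans of Raet1e (chromosome 10, 22158569 to 22374139, GRCm38) and Raet1d overlap on the same strand, so the split of reads between them is uncertain. The 4 Raet1 and H60 genes together summed to 59.3, 53.1, 61.6 and 67.9 CPM in aged and 5.68, 14.9, 9.28 and 7.56 CPM in young livers. Clec2h encodes a C-type lectin-like ligand of an NKR-P1 receptor. It was at 2.14, 3.29, 1.21 and 1.51 CPM in aged and 40.3, 10.5, 19 and 26.7 CPM in young livers (log2 fold change -3.56 ± 0.52, adjusted p = 0.00159), lower in every aged library. The NK cell markers Ncr1 and Klrb1c summed to 0.132 to 1.11 CPM in aged and 0.175 to 0.437 CPM in young livers, which overlap.

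A few interferon-linked genes rose. Ifi27l2b, an interferon-inducible family member, was at 24.8, 33.1, 26.7 and 29.5 CPM in aged and 3.57, 3.82, 5.34 and 1.98 CPM in young livers (log2 fold change 2.95 ± 0.29, adjusted p = 5.24e-05), without overlap. Of 48 genes of MHC class I and the interferon response 3 rose (6.25%, against 1.92% of all tested genes) and 0 fell. Of the 48, 5 were higher in every aged than in every young library (10.4%, against 4.82%). A positive fold change was found for 44, and the median of the list was 0.44. The number that rose was 1 to 5 with 1 library left out and 1 without aged 4 and young 1. The median was 0.11 to 0.6 with 1 library left out and 0.05 without aged 4 and young 1. H2-D1, an MHC class I heavy chain, was at 834, 697, 641 and 977 CPM in aged and 411, 576, 566 and 543 CPM in young livers (log2 fold change 0.59 ± 0.15, adjusted p = 0.0419), and the antiviral gene Slfn8 had 1.27 (adjusted p = 0.0419). These 2 kept the call in 3 and 2 of the 8 left-out fits (up to 0.112 and 0.121, without aged 4), while Ifi27l2b, Raet1e, Raet1d and Clec2h kept it in all 8 and without aged 4 and young 1.

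Several genes of lipid-associated and recruited macrophages rose in aged livers. Of 28 measured genes 10 rose (35.7%, against 1.92% of all tested genes) and 0 fell. Cd36 and Atp6v0d2 named above were among those that rose, and the median log2 fold change was 1.62. Leaving out 1 library gave 4 to 11, and leaving out aged 4 and young 1 gave 3. Gpnmb, a glycoprotein of lipid-laden macrophages, was at 2.48, 4.87, 5.35 and 4.59 CPM in aged and 0.305, 0.275, 0.461 and 0.0805 CPM in young livers (log2 fold change 3.92 ± 0.57, adjusted p = 0.00153). Itgax, the integrin CD11c, was at 7.38, 2.51, 2.81 and 15.3 CPM in aged and 0.641, 0.524, 1.72 and 0.563 CPM in young livers (log2 fold change 3.01 ± 0.57, adjusted p = 0.0101). Gpnmb was lowest of the aged in aged 1, and Itgax was several times higher in aged 4 than in aged 2 or 3. Clec7a, the receptor dectin-1, was at 17.2, 4.6, 6.47 and 20.6 CPM in aged and 0.794, 2.5, 3.25 and 1.98 CPM in young livers (log2 fold change 2.51 ± 0.52, adjusted p = 0.0161). The elastase Mmp12 had 3.57 (adjusted p = 0.0145), the lipid receptor Trem2 3.43 (adjusted p = 0.0322), Ms4a7 3.27 (adjusted p = 0.0229) and the actin-capping gene Capg 2.67 (adjusted p = 0.03). Trem2, Ms4a7 and Capg were named after their values were seen. Those 4 and Clec7a lost the call in 2 to 6 left-out fits, without young 1 and young 4 in each case (adjusted p up to 0.105).

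The Kupffer cell markers Clec4f, Vsig4, Cd5l, Timd4 and Marco summed to 375, 117, 90.3 and 257 CPM in aged and 127, 128, 164 and 148 CPM in young livers. Aged 1 and aged 4 lay above and aged 2 and aged 3 below the young range. Of 24 Kupffer cell genes 0 rose and 1, C6, fell (4.17%, against 1.31% of all tested genes). A positive fold change was found for 20, and the median of the list was 0.65 (0.34 without aged 4 and young 1). Clec7a, Capg, Trem2 and Ms4a7 were also higher in aged 1 and aged 4 than in aged 2 and aged 3. By edgeR's test 0 of 22 genes of dendritic cells and MHC class II were called (16 at an unadjusted p under 0.05, 6 by DESeq2 and 0 by limma voom), with a median of 1.29 that was 0.66 without aged 4 and young 1. H2-Aa, an MHC class II chain, was at 103, 45.2, 48.3 and 245 CPM in aged and 26.5, 29.6, 58.3 and 19.8 CPM in young livers (log2 fold change 1.72 ± 0.51, adjusted p = 0.0776), and its chaperone Cd74 had 1.80 (adjusted p = 0.0814). In these bulk libraries, fewer cells of a type and less RNA per cell cannot be told apart.

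Immunoglobulin transcripts were higher in every aged liver. The 13 immunoglobulin constant genes summed to 111, 115, 178 and 261 CPM in aged and 32.2, 39.8, 31.9 and 24.3 CPM in young livers, and 218 variable segments to 17.6, 11.5, 32.8 and 27.3 CPM in aged and 2.08, 2.52, 5.66 and 3.35 CPM in young livers. The lowest aged sum was above the highest young sum for both. Ighm, the heavy chain of immunoglobulin M, was at 58.2, 75.1, 88.2 and 112 CPM in aged and 14.3, 31.9, 12.8 and 11.8 CPM in young livers (log2 fold change 2.24 ± 0.42, adjusted p = 0.0101). Igkc, the kappa light chain, was at 38.4, 30.7, 62 and 103 CPM in aged and 10.1, 3.37, 8.52 and 5.23 CPM in young livers (log2 fold change 3.10 ± 0.69, adjusted p = 0.0249), and Ighg1, of immunoglobulin G1, at 0.464, 0.229, 6.47 and 3.01 CPM in aged and 0.0305, 0.0998, 0.0971 and 0.0536 CPM in young livers (log2 fold change 5.08 ± 1.10, adjusted p = 0.0202). Jchain, which joins immunoglobulin chains in plasma cells, was at 2.56, 2.03, 7.06 and 6.06 CPM in aged and 1.13, 0.874, 1.26 and 0.778 CPM in young livers (log2 fold change 2.13 ± 0.62, adjusted p = 0.0746) and did not pass. The B cell markers Ms4a1 and Cd79a summed to 2, 2.56, 2.83 and 9.82 CPM in aged and 3.11, 1.4, 2.87 and 2.74 CPM in young livers. Except for aged 4 these aged sums lay within the young range. Of 31 B and plasma cell genes 3 rose (9.68%, against 1.92% of all tested genes) and 0 fell. Igkc kept the call in 4 and Ighg1 in 5 of 8 left-out fits (up to 0.09 and 0.0776, without young 4), Ighm in all 8, and none of the 3 without aged 4 and young 1 (0.124, 0.14 and 0.101).

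T cell genes were highest in aged 4. The 8 T cell receptor constant genes summed to 3.45, 2.45, 1.99 and 16.2 CPM in aged and 4.21, 1.62, 3.57 and 1.85 CPM in young livers, with aged 4 alone above the young range. Of 39 T and NK cell genes 3 rose (7.69%, against 1.92% of all tested genes). Gzmk, a granzyme, was at 0.101, 0.0914, 0.11 and 2.49 CPM in aged and 0, 0, 0.0486 and 0 CPM in young livers. Tigit, an inhibitory receptor, was at 0.242, 0.0686, 0.11 and 1.49 CPM in aged and 0, 0, 0.0243 and 0 CPM in young livers, and Cd5, a T cell surface protein, at 0.444, 0.251, 0.482 and 1.67 CPM in aged and 0.0305, 0, 0.17 and 0.107 CPM in young livers. Young livers held few fragments of these, so their fitted changes depend on the fit's small added count. They kept the call in 2 or 3 of 8 left-out fits, and none of them without aged 4, young 1, young 2 or young 4 (adjusted p up to 0.187, 0.119 and 0.135). The list's median log2 fold change of 1.17 was 0.27 without aged 4 and young 1.

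**Figure D3:**
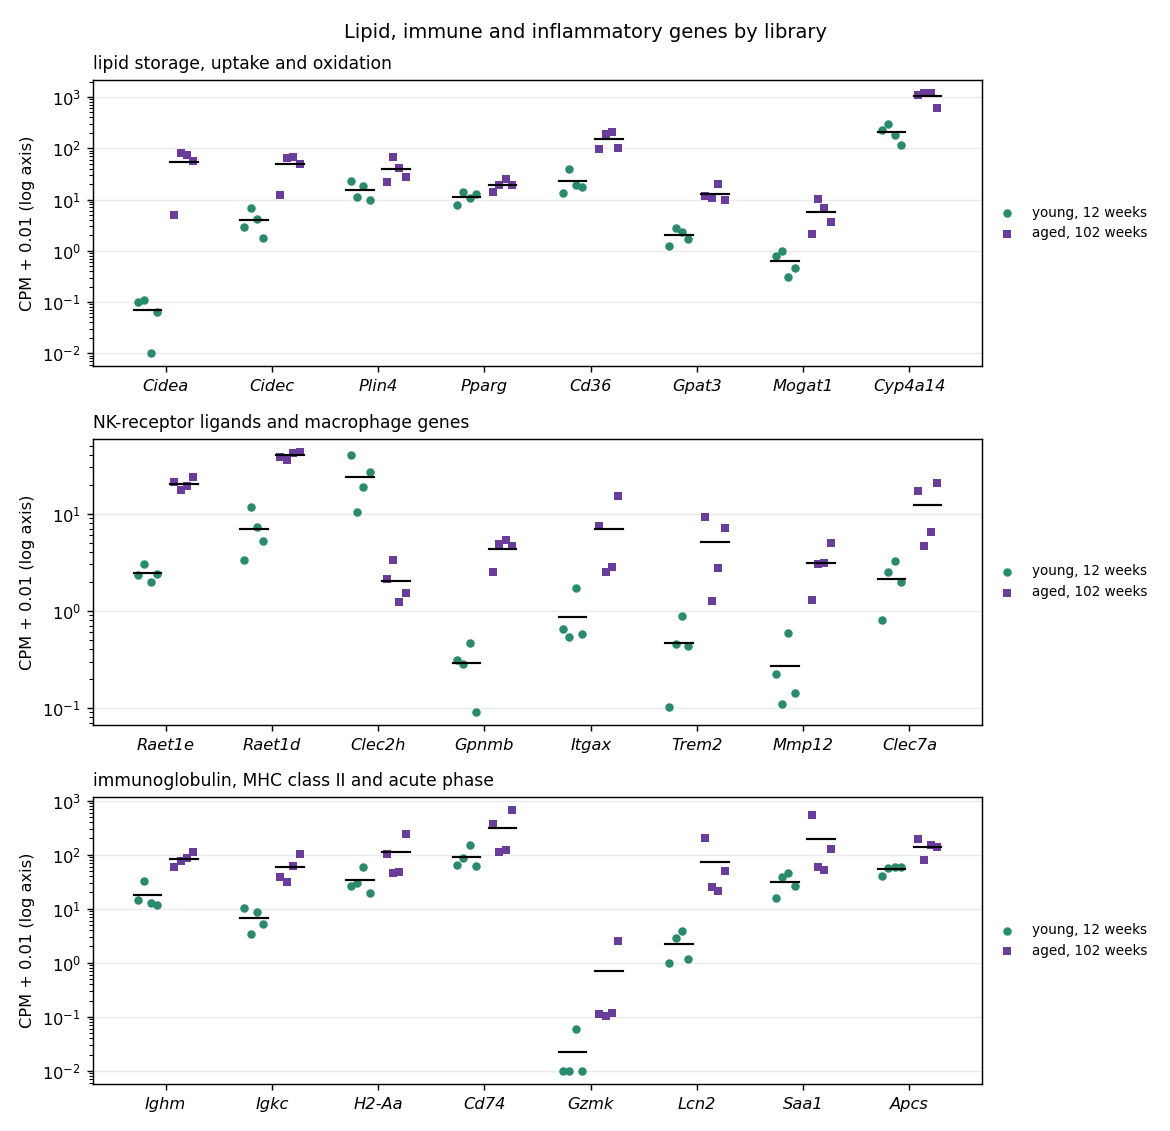
CPM plus 0.01 on a log axis for 24 genes in each library (circles, young; squares, aged; bars, group means). Cidea, Cidec, Raet1e, Clec2h, Gpnmb and Ighm do not overlap between the ages, while H2-Aa and Cd74 do, and Gzmk is high in aged 4 alone.

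Several liver proteins of the acute phase rose, most of all in aged 1. Lcn2, a siderophore-binding protein of the acute phase, was at 200, 25.4, 21 and 50 CPM in aged and 0.977, 2.82, 3.93 and 1.15 CPM in young livers (log2 fold change 5.04 ± 0.91, adjusted p = 0.00784). Orm2, an acid glycoprotein of plasma, was at 217, 31.9, 14.4 and 27.7 CPM in aged and 4.55, 8.74, 7.29 and 5.58 CPM in young livers (log2 fold change 3.47 ± 0.75, adjusted p = 0.0202). Saa1, a serum amyloid named after its values were seen, was at 533, 60, 52.8 and 129 CPM in aged and 15.6, 38.3, 46.1 and 25.9 CPM in young livers and did not pass (adjusted p = 0.0543), whereas Saa2 rose (2.73, adjusted p = 0.0395). Aged 1 was the highest library for all 4. Apcs, serum amyloid P, was at 193, 81.1, 150.4 and 139.5 CPM in aged and 40.4, 56.9, 60.1 and 58.9 CPM in young livers (log2 fold change 1.38 ± 0.29, adjusted p = 0.019). Orm3 had 4.03 (adjusted p = 0.0217) and the interleukin 1 antagonist Il1rn 1.51 (adjusted p = 0.0465). Among the 35 acute phase genes 6 rose (17.1%, against 1.92% of all tested genes) and 1 fell (2.86%, against 1.31%). The 1 that fell was Serpina3k, an abundant protease inhibitor, at 3194, 2927, 2597 and 1254 CPM in aged and 6882, 8306, 8051 and 10349 CPM in young livers (log2 fold change -1.75 ± 0.36, adjusted p = 0.0155). With 1 library left out the count that rose was 1 to 7, and without aged 4 and young 1 it was 0. Serpinb1a, an elastase inhibitor from outside the list, was at 34.1, 45.7, 7.12 and 15.5 CPM in aged and 1.98, 1.85, 0.923 and 3.67 CPM in young livers (log2 fold change 3.61 ± 0.65, adjusted p = 0.00795).

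Of 47 chemokine and inflammation genes 6 rose (12.8%, against 1.92% of all tested genes) and 0 fell, with a median of 1.23. The count was 1 to 8 with 1 library left out, 1 with only the 8 libraries fitted and 0 without aged 4 and young 1. Tnfaip3, a brake on NF-kappaB, was at 3.95, 5.33, 5.44 and 5.63 CPM in aged and 1.31, 2.2, 2.96 and 2.17 CPM in young livers (log2 fold change 1.23 ± 0.24, adjusted p = 0.0112). The cytokine gene Il1b was at 4.03, 1.99, 3.46 and 4.19 CPM in aged and 0.916, 0.724, 0.874 and 0.59 CPM in young livers (log2 fold change 2.14 ± 0.43, adjusted p = 0.0146). Both were higher in every aged library. The chemokine genes Ccl2 and Cxcl14 had 2.39 and 1.44 (adjusted p = 0.0274 and 0.0447) and the prostaglandin E synthase Ptges 2.69 (adjusted p = 0.035). Of the 13 called genes named under acute phase and inflammation, 3 kept the call in each left-out fit (Lcn2, Serpinb1a and Tnfaip3), and the other 10 lost it without young 4 and, except for Il1b and Serpina3k, without at least 1 other library (adjusted p from 0.0601 to 0.132 at the highest). None of the 13 was called without aged 4 and young 1, where Lcn2 had 0.0627, Serpinb1a 0.0561 and Tnfaip3 0.0638.

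Cdh1, the adhesion protein E-cadherin of periportal hepatocytes and bile ducts, fell. It was at 5.75, 6.77, 21.2 and 7.1 CPM in aged and 51.2, 91.3, 122 and 87.5 CPM in young livers (log2 fold change -3.11 ± 0.55, adjusted p = 0.00725), with the highest aged level in aged 3 and no overlap. The bile duct markers Krt7, Krt19, Epcam and Sox9 summed to 16.3 to 26.1 CPM in aged and 10.3 to 20.1 CPM in young livers. Lama3, a laminin chain, was at 1.86, 2.1, 1.49 and 0.713 CPM in aged and 6.53, 6.81, 8.26 and 9.71 CPM in young livers (log2 fold change -2.34 ± 0.46, adjusted p = 0.0122). Gjb1, the gap junction protein of hepatocytes, had -0.44 (adjusted p = 0.0322). Cdh1 and Gjb1 were the 2 of 31 junction genes that fell (6.45%, against 1.31% of all tested genes), and 0 rose. Gas6, a ligand of the receptors Axl and Mertk, was at 166, 115, 106 and 153 CPM in aged and 44.9, 59.8, 57.1 and 48 CPM in young livers (log2 fold change 1.36 ± 0.20, adjusted p = 0.00173). Timp1, an inhibitor of matrix breakdown, was at 0.585, 0.594, 0.658 and 2.78 CPM in aged and 0.0305, 0.0749, 0.267 and 0.0536 CPM in young livers (log2 fold change 3.36 ± 0.67, adjusted p = 0.0142), highest in aged 4. Of 50 stellate cell and matrix genes 5 rose (10%, against 1.92% of all tested genes) and 0 fell. The number that rose was 1 to 6 with 1 library left out and 1 without aged 4 and young 1. Besides Gas6, Timp1 and Mmp12, those called in the full fit were the membrane protease Mmp14 (0.71, adjusted p = 0.0374) and the matricellular gene Ccn2 (1.83, adjusted p = 0.0428).

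Endothelial marker sums were lower in aged livers. Stab2, Clec4g, Kdr and Pecam1 summed to 74.8, 111, 107 and 107 CPM in aged and 152, 142, 151 and 161 CPM in young livers, which do not overlap. Of 34 endothelial genes 2 fell (5.88%, against 1.31% of all tested genes). They were the sinusoidal lectin Clec4g (-0.76, adjusted p = 0.043) and the nuclease Dnase1l3 (-0.89, adjusted p = 0.0395). Of the 34, 9 were lower in every aged library (26.5%, against 4.44% of all tested genes). Of 35 bile duct and fetal liver genes 3 rose (8.57%, against 1.92% of all tested genes). The galectin Lgals1 was at 45.9, 110.4, 82 and 97.1 CPM in aged and 36.5, 39.1, 24.4 and 24.5 CPM in young livers (log2 fold change 1.43 ± 0.24, adjusted p = 0.0046). The others were the annexin Anxa2 (1.70, adjusted p = 0.0105) and the surface protein Ly6d (4.0, adjusted p = 0.0105). Tff3, a mucosal trefoil peptide, fell and was far higher in young 3 than in the others, at 0.565, 0.937, 1.78 and 1.6 CPM in aged and 4.67, 3.29, 87.6 and 6.28 CPM in young livers (log2 fold change -4.38 ± 1.13, adjusted p = 0.0464). Of the 13 genes named for adhesion, matrix and vessels, 6 kept the call in each left-out fit (Cdh1, Lama3, Gas6, Lgals1, Anxa2 and Ly6d). Timp1 lost it without young 4 (0.0601), Gjb1, Mmp14, Dnase1l3, Ccn2 and Tff3 kept it in 1 to 3 fits and Clec4g in none (up to 0.19, for Tff3 without young 3).

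Rad51b, a gene of homologous recombination, was at 27.1, 13.5, 13.2 and 28.9 CPM in aged and 0.702, 1.85, 0.437 and 0.456 CPM in young livers (log2 fold change 4.57 ± 0.53, adjusted p = 0.000232). Aged libraries fell into a lower and a higher pair, all above the young ones. Of 52 cell cycle genes 6 rose (11.5%, against 1.92% of all tested genes) and 2 fell (3.85%, against 1.31%). Of the 52, 19 were higher in every aged library (36.5%, against 4.82%), and the median was 0.69. With 1 library left out 0 to 7 rose and the median was 0.63 to 0.8, and without aged 4 and young 1, 0 rose and the median was 0.56. Top2a, which untangles DNA at mitosis, was at 3.79, 3.06, 2.74 and 4.81 CPM in aged and 0.427, 1.02, 1.51 and 0.724 CPM in young livers (log2 fold change 1.95 ± 0.44, adjusted p = 0.0272). The mitotic genes Tpx2 (1.58, adjusted p = 0.0251) and Kif20a (1.63, adjusted p = 0.0272) and their regulator Foxm1 (1.69, adjusted p = 0.0275) rose at 1.13 to 2.74 CPM. The 2 that fell serve DNA synthesis, Tk1 at 18.7, 13.4, 12.7 and 21.2 CPM in aged and 48.3, 29, 32.2 and 24.9 CPM in young livers (log2 fold change -1.03 ± 0.22, adjusted p = 0.0202) and Mcm10 with -1.16 (adjusted p = 0.029). Among chromatin genes Uhrf1, which guides DNA methylation after replication, rose (1.95, adjusted p = 0.0321) and the histone demethylase Kdm5b fell (-0.60, adjusted p = 0.0407). Of 36 p53 and senescence genes Phlda3, a p53 target, was the 1 called (2.78%, against 3.23% of all tested genes in either direction). Its log2 fold change was 1.42 (adjusted p = 0.0226). Cdkn1a was at 15.2, 28.9, 41 and 26.3 CPM in aged and 13.2, 12.1, 21.9 and 6.79 CPM in young livers (log2 fold change 1.04 ± 0.42, adjusted p = 0.192) and Cdkn2a had 0.35 ± 0.76 (adjusted p = 0.847). Rad51b alone of these kept the call in each left-out fit, and the other 9 called genes lost it in 2 to 6 of them (adjusted p up to 0.114). All but Tk1, lost without aged 2, aged 3 or young 1, were lost without young 4.

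Some single genes outside these lists also rose or fell. Tmem45b, a transmembrane protein gene, was at 1.25, 1.76, 1.97 and 2.47 CPM in aged and 0.061, 0, 0.0486 and 0.0268 CPM in young livers (log2 fold change 5.69 ± 0.46, adjusted p = 1.29e-05). Aged livers held 340 fragments of it and young livers 5, a ratio of 56.0 with an exact 95% interval of 23.7 to 173 for counting error. Olfr1030, an olfactory receptor gene, was at 1.35, 0.96, 0.877 and 1.02 CPM in aged and 0, 0, 0.0243 and 0.0268 CPM in young livers (log2 fold change 6.05 ± 0.60, adjusted p = 5.58e-05), with 195 fragments in aged and 2 in young livers (a ratio of 80.2 with an exact 95% interval of 21.9 to 667 for counting error). Gprc5b, an orphan receptor gene, was at 4.76, 21.3, 33.1 and 19.6 CPM in aged and 0.0916, 1.85, 3.23 and 0.456 CPM in young livers (log2 fold change 3.77 ± 0.67, adjusted p = 0.00742). These 3 did not overlap between the ages. Ttc39c, a tetratricopeptide repeat gene, was at 126, 147, 109 and 102 CPM in aged and 491, 391, 362 and 456 CPM in young livers (log2 fold change -1.81 ± 0.17, adjusted p = 4.76e-05). AC139027.1, a transcript on the opposite strand within it, also fell (-2.80, adjusted p = 0.0391, and called in 2 of 8 left-out fits, up to 0.115 without young 1). The deposited counts used strand, but how fully this keeps the pair apart was not tested. Hes6, a transcription factor of the Hes family, was at 49.5, 49.9, 42.2 and 46.8 CPM in aged and 133, 146, 87.8 and 95.6 CPM in young livers (log2 fold change -1.30 ± 0.14, adjusted p = 0.000154). Adgrf1, an adhesion receptor gene, was at 0.504, 0.229, 0.263 and 0.646 CPM in aged and 8.09, 4.47, 20.9 and 15.6 CPM in young livers (log2 fold change -4.89 ± 0.61, adjusted p = 0.000453). The citrate cotransporter Slc13a2 had -2.71 and the kinase Wnk4 -2.66 (adjusted p = 0.00981 and 0.00795). The 8 genes other than AC139027.1 kept the call in each left-out fit.

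Of the called genes, 28 that rose and 18 that fell are long non-coding or antisense RNAs. AC138228.2, a lincRNA of unknown role, was at 14.2, 12.8, 10.8 and 14.8 CPM in aged and 4.46, 3.82, 4.61 and 6.68 CPM in young livers (log2 fold change 1.43 ± 0.17, adjusted p = 0.000359). Lncbate1, first described in brown fat, was at 2.2, 2.35, 1.07 and 0.779 CPM in aged and 0.305, 0.474, 0.219 and 0.188 CPM in young livers (log2 fold change 2.42 ± 0.43, adjusted p = 0.00673). Both were higher in every aged library. Airn, antisense to the imprinted gene Igf2r, rose (1.35, adjusted p = 0.0379, called in 2 of 8 left-out fits, up to 0.105 without young 4), while Igf2r, named after its values were seen, had 0.03 (adjusted p = 0.965). The mitochondrial tRNA gene mt-Ti fell (-1.23, adjusted p = 0.0482, called in 2 of 8, up to 0.125 without young 1), and young 1, the library with the most mitochondrial fragments, held the highest level, 33.0 CPM. The imprinted fetal RNA H19 had 2.06 ± 0.59 (adjusted p = 0.0697) and the nuclear RNA Malat1 -0.53 ± 0.31 (adjusted p = 0.368).

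Most core hepatocyte products were not called. Alb, serum albumin, was at 55816, 68234, 91299 and 65091 CPM in aged and 64368, 76304, 82499 and 75399 CPM in young livers (log2 fold change -0.09 ± 0.23, adjusted p = 0.875), and Afp, its fetal relative, had 0.29 ± 0.47. Of 31 hepatocyte identity genes 4 fell (12.9%, against 1.31% of all tested genes) and 0 rose. A negative fold change was found for 27, with a median of -0.24. The 4 that fell were all of the Serpina1 family (Serpina1a -0.67, Serpina1c -0.98, Serpina1d -0.55 and Serpina1e above). Of 49 coagulation and complement genes 3 fell (6.12%, against 1.31% of all tested genes) and 0 rose. Of the 49, 8 were lower in every aged library (16.3%, against 4.44%). F11, coagulation factor XI, was at 37.9, 45, 55.3 and 52.5 CPM in aged and 118, 81.5, 112 and 96.4 CPM in young livers (log2 fold change -1.09 ± 0.14, adjusted p = 0.000651), without overlap. Klkb1, prekallikrein, had -0.66 (adjusted p = 0.0168) and the complement gene C6 -1.73 (adjusted p = 0.0428, lost in each left-out fit, up to 0.117). Of 45 conjugation genes 6 fell (13.3%, against 1.31% of all tested genes) and 0 rose. Among them were the glucuronosyltransferases Ugt2b38 (-2.44) and Ugt2b5 (-0.75). C6 and, of the conjugation genes that fell, Ugt2b38, Gstp1 and Gstp2 are also on the male-biased list. Of 40 drug-metabolizing cytochrome P450 genes 6 rose (15%, against 1.92% of all tested genes) and 3 fell (7.5%, against 1.31%). Besides the female-biased Cyp2b9, Cyp2b13 and Cyp2a4 above, Cyp2a22, Cyp2c38 and Cyp2c39 rose by 3.83, 1.34 and 2.20. Cyp1a2 (-1.18), Cyp2d9 (-1.51, also male-biased) and Cyp2d10 (-0.60), the last named after its values were seen, fell. The summed Cyp2a, Cyp2c and Cyp3a families overlapped between the ages, with Cyp2c at 3124, 2897, 2095 and 1756 CPM in aged and 2461, 3379.6, 2288 and 3554 CPM in young livers.

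Some genes of the zonation lists fell. Of 33 pericentral genes 5 fell (15.2%, against 1.31% of all tested genes) and 0 rose. With 1 library left out 0 to 4 fell, without aged 4 and young 1 none did, and 2 were lower in every aged library (6.06%, against 4.44%). The 5 were the Wnt deacylase Notum (-0.77, adjusted p = 0.0222), the taurine synthesis enzyme Csad (-1.03, adjusted p = 0.0343), Cyp1a2 (adjusted p = 0.0447), Cyp27a1, a sterol hydroxylase (-0.71, adjusted p = 0.0404), and Mup17 (-4.05, adjusted p = 0.0345). Of 32 periportal genes 1 fell, Cdh1 (3.12%, against 1.31%). Of 31 bile acid genes 3 fell (9.68%, against 1.31%), Cyp7b1, Cyp27a1 and the racemase Amacr (-0.51). The exporter Abcc4 rose (1.63, adjusted p = 0.0374), the 1 that did (3.23%, against 1.92% of all tested genes). Mup17 and Cyp7b1 are also on the male-biased list. Of 53 urea cycle and amino acid genes 43 had a negative fold change, with a median of -0.28, and 1 fell (1.89%, against 1.31% of all tested genes). It was Acmsd of tryptophan breakdown (-1.12, adjusted p = 0.0355). Among the hepatocyte genes named here and above, F11, Klkb1, Serpina1a, Ugt2b38, Cyp2a22 and Cyp2d9 kept the call in each left-out fit. The other 15 called genes named in these 2 paragraphs and not before lost it without young 4 and, except for Cyp2c38, without other libraries (adjusted p up to 0.142).

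Energy metabolism and protein synthesis genes had small, mostly negative differences. By edgeR's test 0 of 74 respiratory chain genes were called (12 at an unadjusted p under 0.05, 4 by DESeq2 and 0 by limma voom), and 68 had a negative fold change, with a median of -0.19. Of 76 cytosolic ribosomal protein genes edgeR's test called 0 (1 at an unadjusted p under 0.05, 0 by DESeq2 and 0 by limma voom), and 71 were negative, with a median of -0.16. Of 77 mitochondrial ribosomal protein genes 74 were negative, with a median of -0.17, and 15 were lower in every aged library (19.5%, against 4.44%). The 4 that fell (5.19%, against 1.31% of all tested genes) were Mrpl34, Mrpl38, Mrpl19 and Mrps5, named after their values were seen. They had -0.33, -0.42, -0.32 and -0.34. Each was lost in at least 5 of the 8 left-out fits (up to 0.135). Of 39 proteasome genes 1 fell (2.56%, against 1.31% of all tested genes). It was Psmd9 (-0.39), also named after its values were seen and called in 2 of 8 left-out fits (up to 0.149). The medians of both ribosomal lists were negative with each library left out.

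A few stress and metal genes rose or fell. Of 36 antioxidant genes 2 rose (5.56%, against 1.92% of all tested genes), Nqo1 and Abcc4, and 1 fell (2.78%, against 1.31%), Prdx4. Prdx4, a peroxidase of the endoplasmic reticulum, was at 53.5, 44.6, 43.2 and 43.1 CPM in aged and 59.7, 68.5, 71.1 and 85.8 CPM in young livers (log2 fold change -0.63 ± 0.12, adjusted p = 0.0101). The quinone reductase Nqo1 rose (1.07, adjusted p = 0.0155). The heat shock gene Hspa1b and the zinc transporter Slc39a4 fell (-1.43 and -0.88, adjusted p = 0.0272 and 0.0256). Prdx4 kept the call in each left-out fit. Nqo1 lost it without young 1 or young 4 (up to 0.0662), and Hspa1b and Slc39a4 kept it in 3 and 4 of 8 (up to 0.0742 and 0.0825, without young 4).

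**Figure D4:**
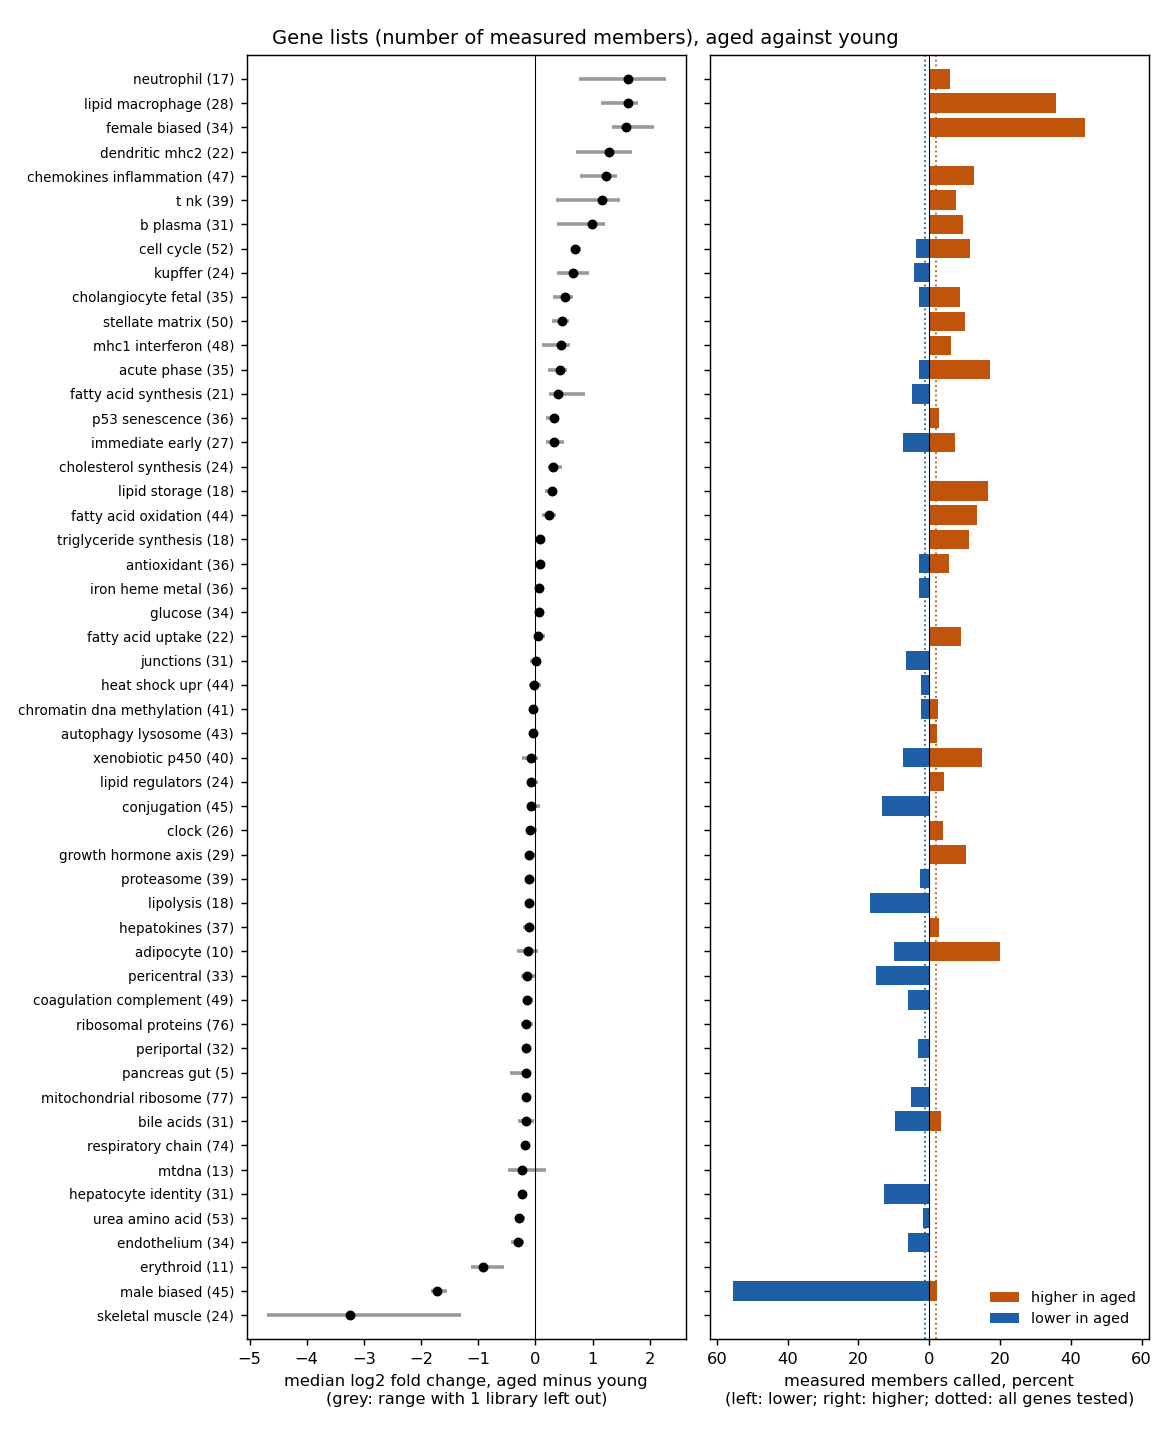
Left, median log2 fold change (aged minus young) of each gene list, with the range over 8 fits that left out 1 library in grey. Right, percent of measured members called lower (left of 0) or higher (right of 0), with dotted lines at 1.31% and 1.92% of all tested genes. The male-biased list reaches 55.6% lower and the female-biased list 44.1% higher, and the skeletal muscle list has a median of -3.24 with 0 of 24 called.

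Skeletal muscle genes had the lowest median of the lists described, -3.24, with all 24 measured genes negative. By edgeR's test 0 of them were called (10 at an unadjusted p under 0.05, 0 by DESeq2 and 0 by limma voom). Their levels differed most between young livers, and the median was -1.31 at the highest with 1 library left out and -1.12 without aged 4 and young 1. Red cell markers also tended lower, Hba-a1 and Alas2 summing to 77, 139, 115 and 91.9 CPM in aged and 226, 171, 164 and 209.9 CPM in young livers. Of 11 erythroid genes edgeR's test called 0 (1 at an unadjusted p under 0.05, 1 by DESeq2 and 1 by limma voom). The part of muscle or blood RNA in the other results was not tested.

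For the aged livers of the antibiotic groups, none of the 551 called genes differed by the test between PAM I and the aged controls or between PAM II and the aged controls, where edgeR's test called 0.0% of all tested genes (1602 and 465 at an unadjusted p under 0.05). A comparison of either group with the young livers would share the young libraries that chose these genes, so levels are only given side by side. Cyp2b9 was at 0 to 0.0998 CPM in young, 84.3 to 156 in aged control, 30.8 to 295 in PAM I and 88.4 to 349 in PAM II livers. Hsd3b5 was at 175 to 311 CPM in young, 0.2 to 1.21 in aged control, 0.0642 to 5.08 in PAM I and 0.138 to 0.492 in PAM II livers. Raet1e was at 1.97 to 3.05 CPM in young, 17.4 to 24 in aged control, 8.42 to 23.4 in PAM I and 12.9 to 25 in PAM II livers, and Noct at 2.41 to 16.1 CPM in young, 48.3 to 262 in aged control, 54.9 to 179 in PAM I and 30.5 to 154 in PAM II livers. Cyp2b9 and Noct spread more widely within the antibiotic groups than Raet1e did. The immunoglobulin constant sum was 202 to 1077 CPM in PAM I and 176 to 486 CPM in PAM II, against 111 to 261 CPM in aged controls.

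**Figure D5:**
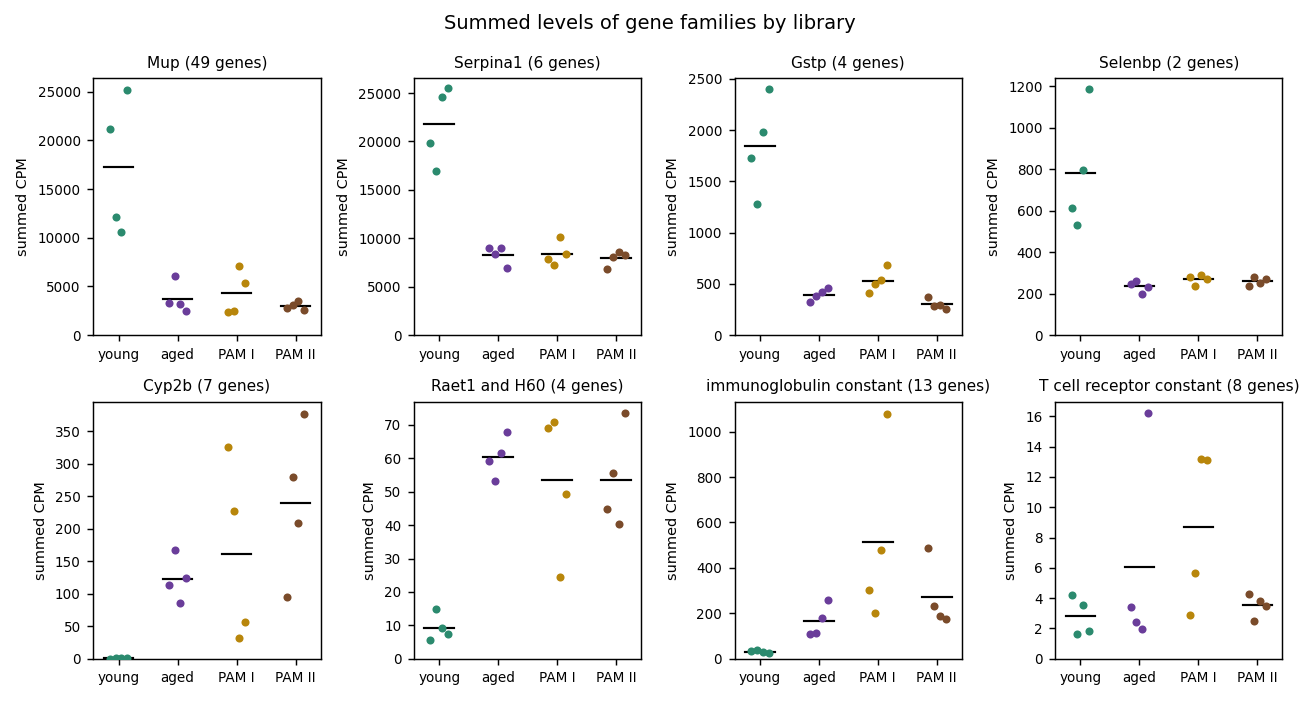
Summed CPM of 8 gene families in each of the 16 libraries, grouped as young, aged controls (aged), PAM I and PAM II, with bars at the group means. Mup, Serpina1, Gstp and Selenbp sums lie lower in every aged library than in any young one, and Cyp2b, Raet1 with H60 and immunoglobulin constant sums lie higher, while the T cell receptor sums overlap.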

How the data were processed

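The authors deposited 1 table of paired-end fragment counts per gene and library, with counts assigned by featureCounts 1.5.0-p2 to genes of Ensembl release 99 (GRCm38) on the read's strand, per the file headers. Symbols of 55230 of the 55471 genes came from GENCODE M21. Reads were handled with Trimmomatic 0.38, HISAT2 2.1.0 and the mm10 genome, per the submitters' processing notes. Of these genes, 17046 passed edgeR's expression filter. Deposited counts were scaled by TMM and tested with edgeR 4.0.16 (R 4.3.3, limma 3.58.1), a quasi-likelihood fit of 4 group means over all 16 libraries, with Benjamini-Hochberg adjustment at 0.05. A standard error is the log2 fold change over the square root of F. The code was tested on simulated data.

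Other scalings, filters, DESeq2 1.42.0, limma voom, the 8 libraries alone and left-out libraries were tried. Members, gene lists and alternatives were chosen with earlier results of these data known. Named genes were the 15 largest changes (mean log2 CPM of at least 1, no overlap) and the 10 smallest p in each direction without predicted genes, pseudogenes and receptor segments, up to 6 per list by p, up to 3 non-coding RNAs in each direction, and 14 fixed genes. The rule gives 308 genes, and the text names 151 of these and 15 marked exceptions. Promoter windows came from RefSeq (GRCm38.p6).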

Additional observations from a re-analysis of the deposited data

Results flagged for a closer look

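In 38 of 332 groups of 4 libraries looked at, 1 library lay far from the other 3 by Dixon's test. Chance gives about 1 in 20 for independent, normally distributed values. CPM of genes from the same libraries need not be so, and some lie near 0. No excess over chance can therefore be read from the count. No cause was tested. Aged 1 lay above the rest of its group for Sult2a7 (34.9 CPM against 2.24 to 6.81 in the others), for Slc22a26 (32.4 CPM against 3.55 to 7.8 in the others) and for Lcn2 (200 CPM against 21 to 50 in the others). Aged 1 lay above the rest of its group for Orm2 (217 CPM against 14.4 to 31.9 in the others), for Saa1 (533 CPM against 52.8 to 129 in the others) and for Prdx4 (53.5 CPM against 43.1 to 44.6 in the others). Aged 2 lay above the rest of its group for Mup11 (131 CPM against 12.8 to 17.3 in the others) and for Mup17 (154 CPM against 9 to 18.6 in the others). Aged 3 lay above the rest of its group for Mup6 (33.7 CPM against 18 to 20.2 in the others), for Gpat3 (20.2 CPM against 9.98 to 11.5 in the others) and for Cdh1 (21.2 CPM against 5.75 to 7.1 in the others). Aged 4 lay above the rest of its group for Tigit (1.49 CPM against 0.0686 to 0.242 in the others), for Cd5 (1.67 CPM against 0.251 to 0.482 in the others) and for Gzmk (2.49 CPM against 0.0914 to 0.11 in the others). Aged 4 lay above the rest of its group for Cxcl14 (7.24 CPM against 3.09 to 3.27 in the others) and for Timp1 (2.78 CPM against 0.585 to 0.658 in the others). Aged 4 lay below the rest of its group for C6 (52.8 CPM against 106 to 114 in the others), for Stat5b (57.5 CPM against 85.4 to 88.6 in the others) and for Cyp4a14 (604 CPM against 1118 to 1209.8 in the others). Aged 4 lay below the rest of its group for Acnat2 (43.1 CPM against 73.3 to 74.7 in the others). Young 1 lay above the rest of its group for Slc22a29 (0.58 CPM against 0.241 to 0.25 in the others), for Dbp (45.8 CPM against 1.97 to 6.01 in the others) and for AC139027.1 (1.83 CPM against 0.599 to 0.777 in the others). Young 1 lay below the rest of its group for Apcs (40.4 CPM against 56.9 to 60.1 in the others) and for Mmp14 (38.7 CPM against 49.6 to 51.5 in the others). Young 2 lay above the rest of its group for Acot3 (6.64 CPM against 1.55 to 2.39 in the others) and for Prlr (89.1 CPM against 73.9 to 75.5 in the others). Young 2 lay above the rest of its group for Ighm (31.9 CPM against 11.8 to 14.3 in the others). Young 3 lay above the rest of its group for Itgax (1.72 CPM against 0.524 to 0.641 in the others), for Tigit (0.0243 CPM against 0 in the others) and for Gzmk (0.0486 CPM against 0 in the others). Young 3 lay above the rest of its group for Tff3 (87.6 CPM against 3.29 to 6.28 in the others) and for Afp (1.14 CPM against 0.474 to 0.519 in the others). Young 3 lay below the rest of its group for Orm3 (0.121 CPM against 0.824 to 0.949 in the others). Young 4 lay above the rest of its group for Hsd3b5 (311 CPM against 175 to 187 in the others), for Mup16 (273 CPM against 29.4 to 66.2 in the others) and for Clec4g (49.4 CPM against 40.4 to 41.4 in the others). Young 4 lay below the rest of its group for Cyp2a4 (0.188 CPM against 0.336 to 0.349 in the others).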

How the results depend on the processing

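The counts of genes that rose and fell, 327 and 224, were 832 and 511 by DESeq2, 134 and 64 with only the 8 libraries fitted, and 104 and 51 without aged 4 and young 1 together. With 1 library left out they were 127 to 316 and 72 to 278. Without the expression filter 270 rose and 137 fell. Both other scalings (RLE and upper-quartile), the stricter filter, non-robust dispersions and limma voom kept both counts within 1.5 times. Called female-biased genes (15) numbered 7 to 13 with 1 library left out and 8 without both, and called male-biased genes (26) 15 to 24 and 9. Droplet genes (3) were 5 by DESeq2. Macrophage genes (10) were 4 by limma voom, 4 to 11 with 1 library left out and 3 without both. Of 148 called genes named in the text, 50 were called without aged 4 and young 1, 78 of 145 with the 8 libraries alone, and none changed sign under any alternative run. Genes not called changed sign in 11 fits. With 1 library left out, Stat5b ranged from -0.19 to 0.00 (without aged 4), Arntl from -0.12 (without young 1, -0.07 without aged 3) to 0.26, Dbp from -2.17 to 0.79 (without young 1), Alb from -0.24 to 0.01 (without aged 1), Afp from -0.08 (without aged 4) to 0.7, and Igf2r from -0.11 (without aged 3, -0.09 without aged 2 and without young 1) to 0.18. Afp was also -0.22 by limma voom and -0.18 without both. Causes were not tested. No paired analysis was possible because the labels number the samples through the series, and the replicate numbers used here only name libraries in accession order. Genes with few fragments in young livers, such as Olfr1030, Gzmk and Tigit, have the least precise folds.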
